A study of Mus musculus with 81 samples.

Results

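The material was 17 regional RNA-seq libraries from 4 thymic lymphomas of untreated p53-/- mice, called here by the mouse numbers 202, 325, 881 and 899. They were chosen by label as the biopsies marked multifocal that came from p53-/- thymic lymphoma with no treatment, and they were 17 of the 81 libraries, 4 of the 40 mice and 4 of the 13 tumours that were sampled in several places. Tumours 202, 325 and 881 each gave biopsies 1, 3, 5 and 7, and tumour 899 gave biopsies 1, 2, 3, 5 and 7, with 1 library per biopsy. The question was which genes and functions differed between places in one tumour, against those that set one tumour apart from another.

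The series examined how aneuploidy affects tumour development in mice of strain C57BL/6 x 129S4Sv/Jae. The 4 mice were p53-/- and carried 3 transgenes, Plk4(Col1a1), centrin-GFP(Rosa) and rtTA(Rosa). Their treatment was None and all were male. Plk4(Col1a1) with rtTA(Rosa) allows doxycycline to raise Plk4, the kinase that starts centriole duplication, so mice that got no drug carried these alleles too. The comparison tumours, with the same 3 transgenes, were 3 p53-/- tumours (12 libraries) and 6 p53+/- tumours (25 libraries) of mice given doxycycline for 2 weeks from day 30, and 8 untreated normal p53+/+ thymuses with these transgenes served as the baseline for chromosomes. Tissue was snap frozen and biopsied on a chilled stage, and DNA and RNA were extracted together, per the labels, which do not say where in a tumour each biopsy number lay or which part of p53 the null allele lacks. Trp53, the gene of p53, was counted at 85.7 to 99.9 CPM (read counts scaled to library size) in tumour 202, 45.4 to 49.3 in tumour 325, 60.9 to 96.01 in tumour 881 and 30.1 to 51.5 in tumour 899, so its RNA level checks no label here.

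Thymic lymphomas of p53-deficient mice are clonal growths of immature lymphocytes, usually of the T lineage. A T-cell clone carries 1 functional rearranged receptor beta chain, so the V segment in its RNA serves as a label of the clone. The normal thymus is a framework of epithelial cells that holds developing T cells: medullary epithelium, marked by the keratins Krt5 and Krt14 and by Aire, expresses many genes of other tissues and presents their products to T cells, and dendritic cells, fibroblasts, vessels and fat lie around it. A biopsy of a lymphoma holds tumour cells together with whatever remains of that framework.

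The 17 libraries held 10.01 to 24.4 M counts (M, mega). Within a tumour the Pearson correlation of log2(CPM + 1) across genes was 0.915 to 0.995 over 28 pairs of regions, and between tumours it was 0.700 to 0.884 over 108 pairs. Region 3 of tumour 881 and region 7 of tumour 899 stood apart. Both had 0 CPM of the pseudogene Rpl10-ps1, as had 15 of the 81 libraries in all, including 7 of the 8 normal p53+/+ thymuses, against 69.7 to 710 CPM in the other 66. They also had a mitochondrial share of 4.07% to 4.92% of counts, against 0.773% to 2.47% in the other 15 regions. The labels name no batch, and the main counts are given with and without these 2 libraries.

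In 3 tumours 1 T-cell receptor beta segment led in every region. Trbv13-2 took 87.6%, 89.2%, 86.8% and 86.3% of the Trbv counts in regions 1, 3, 5 and 7 of tumour 202. Trbv13-3 took 75.8%, 75.6%, 79.6% and 77.0% in tumour 325. In the 5 regions of tumour 899, Trbv31 took 89.1%, 89.3%, 89.5%, 88.4% and 90.5%. No region of these 3 tumours had another leading beta segment, and each share came from 2251 to 13566 counts. The share with the fewest counts, in region 7 of tumour 202, had a 95% Wilson interval of 84.8% to 87.6%, which covers counting error only. Alpha segments were less even. Trav11d led in tumour 202 with 42.7%, 84.6%, 61.9% and 84.0% of Trav counts, where the similarly named Trav11 took 36.1% in region 1 and 19.96% in region 5. Trav19 led in tumour 325 with 24.7% to 31.8%, and Trav15n-1 in tumour 899 with 14.7% to 32.9%. The second beta segment of tumour 325 was Trbv13-2, at 17.1% to 20.6%. The last 180 bases of the 2 transcripts differ at 16 positions and are 91.1% identical, so reads of one may have been counted as the other. In tumour 202, which Trbv13-2 led, the second segment was Trbv12-2 at 5.17% to 6.84%, so Trbv13-3 took no more than that there. The clone markers are shown because the sameness of regions rests on them (GENCODE M21 transcripts, build GRCm38, last 180 bases of each transcript; capitals mark the positions at which Trbv13-2 and Trbv13-3 differ). Trbv13-2 lies at chr6:41121653-41121832 on the plus strand, Trbv13-3 at chr6:41130406-41130585 on the plus strand and Trbv31 at chr6:41557691-41557870 on the minus strand, within the T-cell receptor beta locus.
Trbv13-2: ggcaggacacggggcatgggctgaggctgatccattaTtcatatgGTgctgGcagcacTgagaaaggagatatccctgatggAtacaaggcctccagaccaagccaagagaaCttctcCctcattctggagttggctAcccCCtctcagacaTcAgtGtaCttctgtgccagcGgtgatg
Trbv13-3: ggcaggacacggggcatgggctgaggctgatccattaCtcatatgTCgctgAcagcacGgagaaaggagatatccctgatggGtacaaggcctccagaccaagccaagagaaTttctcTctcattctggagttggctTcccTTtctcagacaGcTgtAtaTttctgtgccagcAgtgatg
Trbv31: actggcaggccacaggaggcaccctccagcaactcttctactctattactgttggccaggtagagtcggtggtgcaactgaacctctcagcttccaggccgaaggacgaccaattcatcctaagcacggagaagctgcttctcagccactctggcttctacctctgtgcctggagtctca

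Tumour 881, labelled thymic lymphoma like the others, carried B-lineage in place of T-lineage markers. It held 13 to 58 Trbv counts per region, and its 14 T-lineage markers had a mean log2(CPM + 1) of 3.18 to 3.79, against 7.65 to 8.41 in the 13 regions of the other tumours. Its B-lineage markers stood at 7.74 to 8.78, against 1.01 to 3.51 elsewhere. Igll1 and Vpreb1, the surrogate light chain genes of pre-B cells, were at 287 to 524 and 352 to 552 CPM in its regions. A single immunoglobulin heavy segment, Ighv1-55 (chr12:115208095-115208274 on the minus strand for the stretch below), took 98.1%, 96.7%, 97.7% and 96.0% of 3146 to 5903 Ighv counts, and Igkv4-72 took 52.7% to 72.3% of the Igkv counts. The 4 regions of tumour 881 thus shared their leading segments, and the tumour is called by its number below. The second kappa segment differed: it was Igkv4-61 in regions 1 and 5, at 16.6% and 11.01%, Igkv1-88 in region 3, at 5.30%, and Igkv14-111 in region 7, at 9.57%. Its V segment is shown for the same reason as the beta segments, with no letters marked.
Ighv1-55: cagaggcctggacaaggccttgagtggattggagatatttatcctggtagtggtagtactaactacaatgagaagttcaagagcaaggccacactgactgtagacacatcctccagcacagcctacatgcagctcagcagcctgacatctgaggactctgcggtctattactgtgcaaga

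The variance of log2(CPM + 1) was split, for each of 11510 genes with a mean of at least 5 CPM, into a part between regions of a tumour and a part between tumours. The median gene had 17.97% of its variance within tumours, or 14.1% without the 2 libraries that stand apart. Its SD between regions was 0.204 (0.176 without them) and its SD between tumours 0.420. Most of the variance lay within tumours for 2066 genes (17.9% of those tested; 1507 without the 2 libraries) and 1666 genes had under 5% of it there. The within-tumour variance of the median gene was 11.3 times what counting error alone gives, and 97.2% of genes exceeded it by more than 2 times. Each region has 1 library, so the SD between regions holds the difference between places together with that between extractions and libraries, and no gene can be tested between 2 regions.

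As a plain measure of size, 629 genes (5.46% of those tested) spanned at least 4-fold, or 2 log2 units, between the highest and the lowest region of at least 1 tumour. Without the 2 libraries that stand apart there were 378 such genes (3.28%). Of the 629, 384 did so in 1 tumour only and 35 in all 4, against 243 and 16 of the 378. Those 16 were Krt5, Krt7, Krt14 and Krt17 (keratins), Fezf2 (a regulator of self-antigen expression in medullary epithelium), Fcgbp, Reg3g, Csn2, Cyp2a5, Alox12e, Ckmt1, Syt1, Ubd, Saa3 and the models Gm13304 and Gm2274. Nearest the limit, Mylk (myosin light chain kinase) lay just inside at 2.005 log2 units in its widest tumour, and Rpl17 (a ribosomal protein) just outside at 1.997. Pseudogenes made up 98 of the 629, and 25 of the 378.

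**Figure D1:**
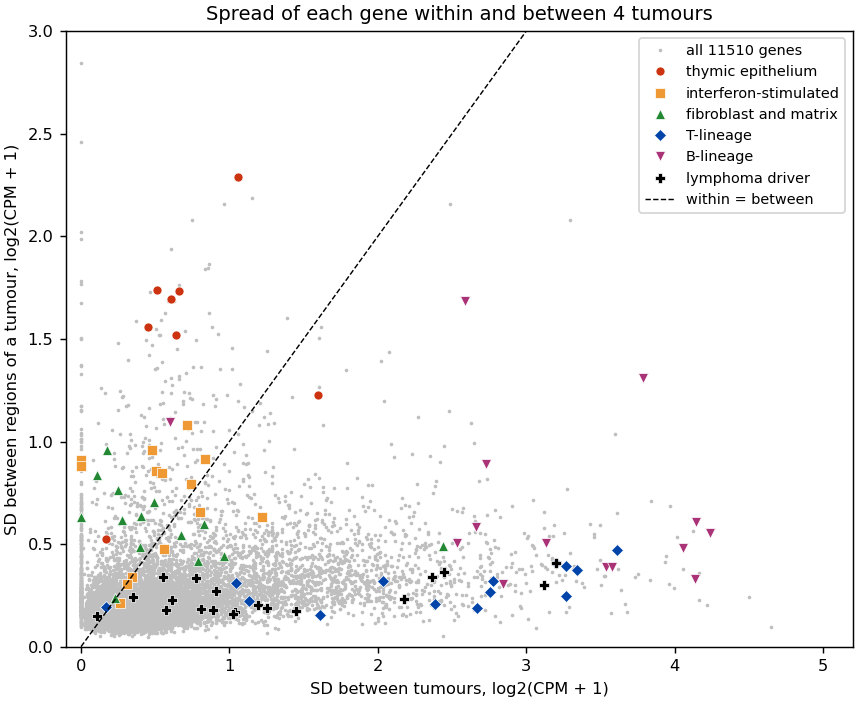
SD of log2(CPM + 1) between regions of a tumour (vertical axis) against SD between the 4 tumours (horizontal axis), 1 point per gene for 11510 genes; coloured points are members of 6 gene lists and the dashed line marks equal spread. Thymic epithelial genes lie high and left (7 of 8 above an SD of 1 between regions, with Krt5 at 2.29), while T-lineage genes have a median SD between regions of 0.288 and B-lineage genes of 0.530, both with a median within-tumour share under 5%.

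The genes with the largest differences between tumours are described next. By edgeR's quasi-likelihood test 10201 of 11510 genes (88.6%) differed between the 4 tumours at an adjusted p under 0.05, where the spread is that between regions and the tumours number 4, so the test speaks of these 4 tumours. The 10 genes with the largest between-tumour variance and under 5% of it within included Dntt, Pax5, Igll1, Arsi, Vpreb1, Cd79a, Vpreb3, Enpep and Chst3. They were picked by that variance in these same libraries, so a p for them would restate the choice and none is given. Dntt, the terminal transferase of receptor recombination, stood at 425, 563, 521 and 509 CPM in tumour 325 and at 304, 265, 268, 282 and 326 CPM in tumour 899. In tumours 202 and 881 it reached at most 1.83 CPM, so those tumours did not overlap with tumours 325 and 899. Arsi, an arylsulfatase, was at 372 to 493.0 CPM in tumour 899 and at most 2.47 CPM in any region of the rest. The other 7 of these were high in tumour 881, and apart from Chst3, a sulphotransferase, all are known from cells of the B lineage. Pax5, the transcription factor that commits cells to the B lineage, was at 917, 1381, 545 and 578 CPM there and at most 4.68 CPM elsewhere, with 1.68% of its variance within tumours. Regions of 1 tumour could still differ in such genes, and at low levels Pax5 spanned 2.12 log2 units and Cd79a 2.06 in tumour 325.

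Lists of genes for cell identity and growth were counted in the same way. None of the 14 T-lineage genes spanned 4-fold in any tumour, beside 5.46% of all genes, and for a list of this size a count of 0 is near that share. Their median SD between regions was 0.288, above the 0.204 of all genes, and their median within-tumour share was 1.37%. Of 14 B-lineage genes 8 spanned 4-fold, and 8 without the 2 libraries that stand apart, with a median SD of 0.530 and a median share of 2.32%. None of the 8 did so in tumour 881, where these genes were high: the spans were in tumours 202, 325 and 899. Pax5 at least was low in those tumours and passed the filter only through tumour 881. The count of 8 is therefore not to be read against the share of all genes. The count was also 0, likewise beside 5.46% of all genes, for 19 lymphoma driver genes, 15 DNA replication genes, 16 mitosis genes, 9 centriole genes, 10 Bcl2 family genes, 16 nuclear genes of oxidative phosphorylation, 12 cholesterol synthesis genes and 22 ribosomal protein genes. Their median SDs lay between 0.151 (DNA replication) and 0.247 (ribosomal protein), against 0.204 for all genes. Cd3e, a chain of the receptor complex, stood at 331, 331, 330.1 and 338 CPM in tumour 202 and at 243, 243, 242, 246 and 262 CPM in tumour 899. Those regions lay within a span of 0.03 log2 units for Cd3e in tumour 202 and 0.11 in tumour 899. Ccnd2, which drives entry into the cell cycle, was at 599 to 641 CPM in tumour 202 and at 7.09 to 12.6 CPM in tumour 325, with 0.913% of its variance within tumours. Myc, the oncogenic transcription factor, was at 373 to 445 CPM in tumour 202 and at 136 to 202 in tumour 325. In tumour 899 it was at 178, 172, 178, 173 and 321 CPM in regions 1, 2, 3, 5 and 7, and its highest region was the library that stands apart. Plk4 itself was at 43.4 to 81.6 CPM over the 17 regions. The macrophage list also had 0 of 14 members past 4-fold, with 59.7% of the median member's variance within tumours, at a median SD of 0.276.

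Of the 32 gene lists examined, thymic epithelium had the largest median SD between regions among those with more than 1 tested gene. Of the 11 epithelial markers 8 reached a mean of 5 CPM over the 17 regions, 7 of those spanned 4-fold in at least 1 tumour and 6 did so in all 4, beside 5.46% of all genes for at least 1. Without the 2 libraries that stand apart 7 of 8 spanned 4-fold in at least 1 tumour, and Krt5 and Krt14 alone did so in all 4. Their median SD between regions was 1.63 and their median within-tumour share 88.0% (1.54 and 71.3% without the 2 libraries that stand apart). In the edgeR test 1 of the 8 differed between tumours, beside 88.6% of all genes. The markers with a mean under 5 CPM were Foxn1, the master regulator of thymic epithelium, at 0 to 11.8 CPM, Psmb11, the proteasome subunit of cortical epithelium, at 0 to 0.9 CPM, and Prss16.

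Krt5, a keratin of basal and medullary epithelium (chr15:101707070-101712898, GRCm38), had the largest SD, 2.29, once pseudogenes such as Rpl10-ps1 (2.84) were left out. In regions 1, 3, 5 and 7 of tumour 202 it was at 170.3, 225, 235 and 1.76 CPM: region 7 was nearly without it. Tumour 325 had 97.1, 0.9902, 7.65 and 2.98 CPM, and here region 1 alone was high. In tumour 881 the values were 78.04, 13.8, 197 and 541 CPM, with region 7 the highest of all 17 regions. In tumour 899 they were 24.2, 10.3, 11.9, 71.9 and 62.2 CPM in regions 1, 2, 3, 5 and 7. All 4 tumours overlapped in level, and 82.3% of its variance lay within tumours. The lowest value of tumour 881 is from the library that stands apart, and without it the span there was 2.86 log2 units in place of 5.196.

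Krt8, Krt14, Krt17 and Krt18, the other keratins among the 20 genes with the largest SD (receptor and immunoglobulin genes, pseudogenes and Gm or Rik models left out), were high and low in the same regions. Krt14 was at 17.7, 19.5, 33.5 and 1.02 CPM in tumour 202, at 33.2, 0.937, 3.47 and 1.797 in tumour 325 and at 10.8, 5.05, 4.75, 39.2 and 18.8 in tumour 899. Aire, the factor that lets medullary cells express genes of other tissues, was at 20.6, 20.1, 26.9 and 0.556 CPM in tumour 202 and 11.6, 1.01, 1.95 and 0.338 CPM in tumour 325. In tumour 881 it was at 8.73, 1.93, 11.4 and 44.5 CPM and in tumour 899 at 7.93, 3.45, 3.33, 14.8 and 31.7 CPM. The high and low regions were those of Krt5, though the lowest Aire of tumour 325 was in region 7 and not in region 3. Region 7 of tumour 899, a library that stands apart, had the highest Aire of its tumour and region 5 the highest Krt5. Among the 100 genes with the largest SD, some that are known from other tissues followed the epithelial list and some did not. The correlation with the epithelial deviation was 0.97 for Csn2, 0.96 for Reg3g and 0.91 for Bpifa1, but -0.04 for Saa3, -0.39 for Hp, -0.28 for Cfd and -0.46 for Car3, all picked after their values were seen. Csn2, a milk casein, was at 15.9, 17.8, 26.6 and 0.278 CPM in tumour 202 and 11.7, 3.16, 4.71, 20.97 and 63.02 CPM in tumour 899. Bpifa1, a secreted airway protein, was at 15.6, 0.0561, 0.487 and 0.113 CPM in tumour 325, and Reg3g, an intestinal antimicrobial lectin, at 8.06, 0.678, 19.9 and 80.6 CPM in tumour 881.

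Ccl21a, a chemokine of medullary epithelium that draws T cells inward, was at 91.2, 102, 163 and 4.35 CPM in tumour 202 and 322, 5.61, 45.7 and 11.03 CPM in tumour 325. It has near-identical copies (Gm13304 among them) between which the counting may have split reads, as have Sprr2a2 and Cyp2a5, so their levels are uncertain. In both tumours the order of the regions was that of Krt5. Epcam, an epithelial adhesion protein, was the exception in 1 tumour. In tumour 202 it was at 83.05, 90.03, 92.3 and 84.5 CPM, as high in region 7 as in the regions with Krt5, whereas in tumour 325 it was at 24.7, 0.842, 3.59 and 1.07 CPM, in the order of Krt5. Of the 20 genes with the largest SD, 17 were also among the 20 without the 2 libraries that stand apart. The 3 others were Eno1b, Ubd and Aire. Eno1b, a near copy of the glycolysis gene Eno1 and so uncertain, was at 893 to 1431 CPM in all regions of tumour 325 and at 157 and 319 CPM in the 2 libraries that stand apart, and reached at most 18.7 CPM in the rest.

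**Figure D2:**
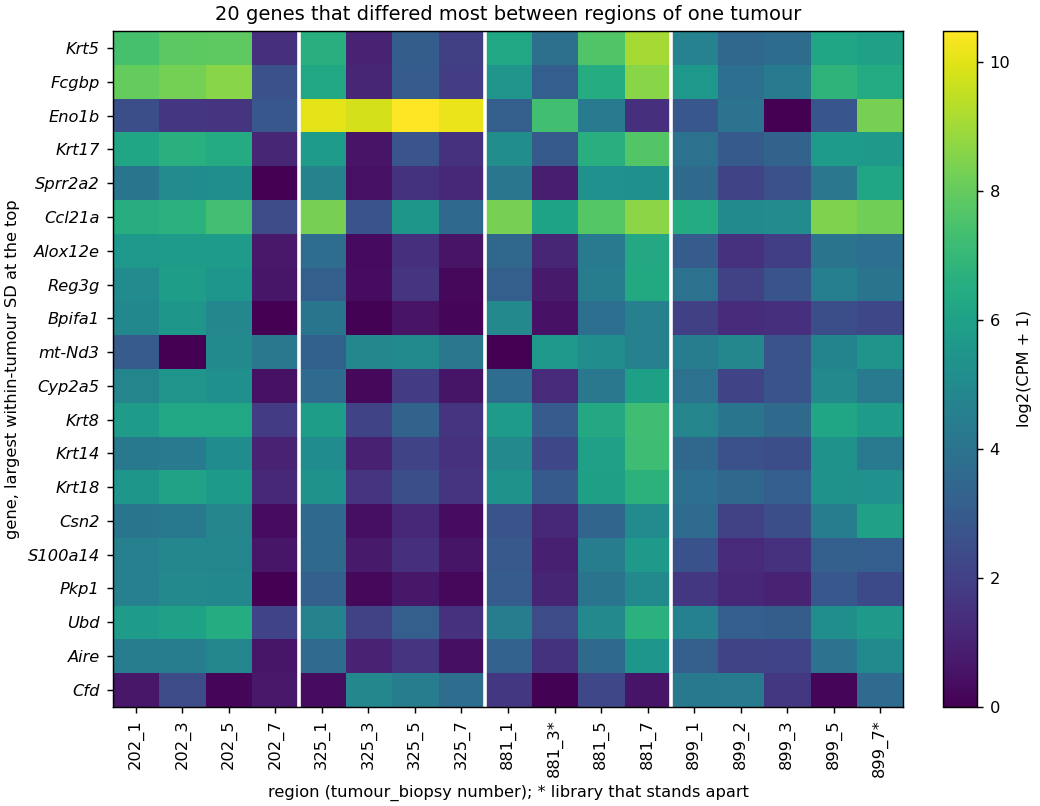
Expression as log2(CPM + 1), by colour, of the 20 genes with the largest SD between regions, leaving out receptor and immunoglobulin genes, pseudogenes and Gm or Rik models (rows, largest at the top) in the 17 regions (columns, grouped by tumour; asterisks mark the 2 libraries that stand apart). Most rows share 1 pattern: dark in region 7 of tumour 202, in regions 3, 5 and 7 of tumour 325, in region 3 of tumour 881 and in regions 2 and 3 of tumour 899, where Krt5 was at 1.76, 0.990, 7.65, 2.98, 13.8, 10.3 and 11.9 CPM.

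Genes of antigen presentation and interferon-stimulated genes were high and low in much the same regions as the epithelial genes. In bulk tissue fewer cells of a type and less RNA per cell cannot be told apart, which holds for each list here. Of 7 measured dendritic and MHC class II genes 4 spanned 4-fold (median SD 0.807), beside 5.46% of all genes, and the same 4 did so without the 2 libraries that stand apart, beside 3.28%. Cd74, the invariant chain that guides class II molecules, was at 414, 589, 579 and 123 CPM in tumour 202, at 559.6, 191, 186 and 126 in tumour 325 and at 245, 91.004, 93.7, 446 and 518 in tumour 899. Region 7 of tumour 202, and regions 2 and 3 of tumour 899, were again the low ones. In tumour 881 it was at 1531, 1252, 1448 and 2175 CPM. H2-Aa, a class II chain, was at 224, 321, 303 and 69.5 CPM in tumour 202 and 267, 106, 107 and 67.2 CPM in tumour 325, with region 1 of tumour 325 high. Itgax, the dendritic integrin CD11c, was at 25.8, 6.71, 8.23 and 6.097 CPM in tumour 325 and 7.74, 4.45, 2.67, 14.9 and 11.5 CPM in tumour 899.

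Of 14 measured interferon-stimulated genes 8 spanned 4-fold, with a median SD of 0.821 and a median within-tumour share of 53.9% (8 of 15, 0.770 and 51.6% without the 2 libraries that stand apart). The share of all genes past 4-fold was 5.46%, or 3.28% without those libraries. Oasl2, an antiviral enzyme homologue, was at 29.1, 40.2, 44.3 and 8.72 CPM in tumour 202 and 18.3, 8.92, 3.83 and 2.42 CPM in tumour 325. In tumour 881 it was at 23.2, 10.9, 28.5 and 78.5 CPM and in tumour 899 at 14.3, 6.09, 5.66, 25.2 and 31.98 CPM, so its highest region was region 7 of tumour 881, as for Krt5. Ifit3, an interferon-induced antiviral protein, was at 24.3, 31.2, 31.4 and 5.89 CPM in tumour 202 and 14.03, 9.34, 4.31 and 3.22 CPM in tumour 325. Oas1a, which makes the activator of RNase L, was at 13.6, 5.29, 30.3 and 79.1 CPM in tumour 881, a span of 3.67 log2 units, against 1.27, 1.36 and 1.34 in tumours 202, 325 and 899. Without the library that stands apart its span in tumour 881 was 2.54. Isg15, a ubiquitin-like modifier, was at 9.24, 13.6, 16.4 and 2.597 CPM in tumour 202 and 6.62, 1.77, 8.82 and 24.7 CPM in tumour 881. Of the 8 genes past 4-fold without the 2 libraries, Oas1a and Iigp1 were so in tumour 881 and the other 6 in tumour 202, of which Oasl2 was so in tumour 325 too (2.44).

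The promoters of 9 of these 14 genes were found in the RefSeq table (build GRCm38.p6, 250 bases before to 50 after the start). Searched on both strands for the interferon response motif, which is GAAA, 2 bases of any kind and GAAA, 6 of the 9 held it, as did 3.49% of all 27025 promoters and 3.24% of the 8599 promoters of tested genes. Those of Oasl2, Irf7 and Ifit2 did not hold these letters in this window. A match is a description of letters, not a site of binding or a cause. The list was chosen as interferon-stimulated, so a high share is built into it and says nothing about regions. The promoters of 3 genes that were high and low in like regions are shown in the direction of the gene, with matches in capitals (on the opposite strand the motif reads TTTC, 2 bases of any kind and TTTC; overlapping matches run together in 1 stretch of capitals). Isg15 held 3 at chr4:156200769-156201068 (minus strand), Oas1a held 2 at chr5:120907476-120907775 (minus strand) and Ifit3 held 2 at chr19:34583279-34583578 (plus strand).
Isg15: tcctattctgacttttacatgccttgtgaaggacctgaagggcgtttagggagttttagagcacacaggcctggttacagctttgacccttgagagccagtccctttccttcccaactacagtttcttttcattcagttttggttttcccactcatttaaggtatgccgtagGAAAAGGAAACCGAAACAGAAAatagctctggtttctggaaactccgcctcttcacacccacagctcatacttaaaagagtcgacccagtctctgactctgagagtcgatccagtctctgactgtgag
Oas1a: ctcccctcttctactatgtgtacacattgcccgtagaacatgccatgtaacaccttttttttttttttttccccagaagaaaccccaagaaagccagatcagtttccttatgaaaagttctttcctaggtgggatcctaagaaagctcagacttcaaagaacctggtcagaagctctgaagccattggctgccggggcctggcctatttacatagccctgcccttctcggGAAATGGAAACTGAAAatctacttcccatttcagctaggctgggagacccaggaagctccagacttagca
Ifit3: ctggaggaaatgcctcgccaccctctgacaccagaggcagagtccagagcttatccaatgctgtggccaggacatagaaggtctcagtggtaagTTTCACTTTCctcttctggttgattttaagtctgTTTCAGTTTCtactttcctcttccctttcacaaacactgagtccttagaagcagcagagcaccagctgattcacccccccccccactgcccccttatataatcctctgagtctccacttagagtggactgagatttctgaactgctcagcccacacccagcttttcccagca

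The lists were also set against each other by the mean log2(CPM + 1) of each list per region, less the mean of its tumour. Over the 17 regions the deviation of the epithelial list had a Pearson correlation of 0.90 with that of the dendritic and MHC class II list, 0.88 with interferon-stimulated genes, 0.82 with MHC class I, 0.82 with heat shock, 0.81 with cytotoxic and 0.79 with p53 target genes. It was 0.09 with the T-lineage list, -0.58 with mitosis and -0.61 with centriole genes. Without the 2 libraries that stand apart the 9 values over 15 regions were, in that order, 0.91, 0.84, 0.77, 0.75, 0.76, 0.73, -0.28, -0.43 and -0.49. These describe regions that share libraries, depth and 4 tumours, and no p is given. Of the 93 genes outside the epithelial list among the 100 with the largest SD, 43 followed the epithelial deviation with a correlation over 0.8, beside 2.07% of all genes. The 93 were picked by SD in these same libraries and most genes vary less, so the contrast is in large part set by that choice. With lists of other cell types the correlation was 0.51 for smooth muscle, 0.33 for endothelium, 0.33 for macrophage, -0.03 for B-lineage, -0.29 for adipocyte and -0.30 for erythroid genes (0.45, 0.41, 0.22, 0.02, -0.40 and -0.14 over 15 regions). The B-lineage value pools unlike tumours. In regions 1, 3, 5 and 7 of tumour 881 this list was at 8.45, 8.78, 8.17 and 7.74. The epithelial list was at 4.46, 2.58, 5.18 and 6.40 there, in reverse order. In tumour 325 region 3 was likewise highest in B-lineage and lowest in epithelial genes. In tumours 202 and 899 both lists were lowest in the same region, 7 and 3. What part each cell type had in the interferon and class II values was not tested.

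**Figure D3:**
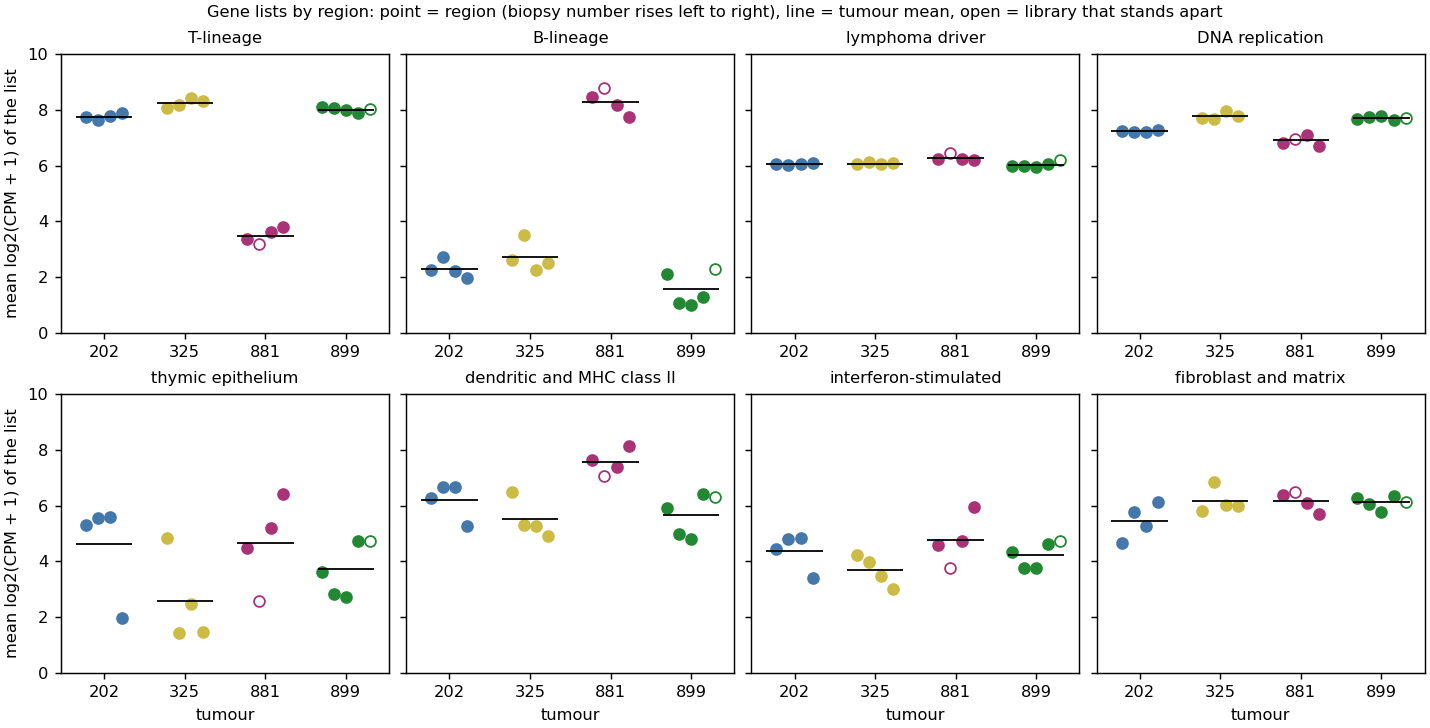
Mean log2(CPM + 1) of 8 gene lists (1 panel each) in each region, grouped by tumour; points are regions in order of biopsy number, open points are the 2 libraries that stand apart and lines are tumour means. Tumour 881 lies apart at 3.18 to 3.79 for T-lineage and 7.74 to 8.78 for B-lineage, driver points of tumours 202, 325 and 899 overlap, and epithelial points spread from 1.96 to 5.59 within tumour 202 alone.

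Fibroblast genes were highest in a region of low epithelial expression in tumours 202, 325 and 881, but not in tumour 899. Of 15 measured fibroblast and matrix genes 6 spanned 4-fold, and 6 did so without the 2 libraries that stand apart, of which 5 were the same (median SD 0.616, share 67.2%), beside 5.46% and 3.28% of all genes. Over the 17 regions the correlation of this list with the epithelial deviation was -0.55. Pdgfra, a receptor of fibroblasts, was at 0.887, 6.38, 0.875 and 7.698 CPM in tumour 202 and 2.61, 23.6, 3.96 and 7.599 CPM in tumour 325. Region 7 of tumour 202, nearly without Krt5, had the most, and region 3 of tumour 325, with the least Krt5, had 23.6 CPM. Col3a1, a fibrillar collagen, was at 43.1, 190.1, 120.4 and 211 CPM in tumour 202 and 128, 474, 241 and 208 CPM in tumour 325. Dcn, a collagen-binding proteoglycan, was at 12.3, 42.1, 11.9 and 56.1 CPM in tumour 202. In tumour 899 the mean of the list was highest in region 5 (6.33), where the epithelial mean was 4.73, and both were lowest in region 3 (5.78 and 2.71). In tumour 881 the highest fibroblast mean (6.48) was in the library that stands apart, and without it region 1 was highest (6.39).

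Smooth muscle and pericyte genes (4 of 7 past 4-fold beside 5.46% of all genes, and 3 of 7 beside 3.28% without the 2 libraries) were highest in 1 region each of tumours 325 and 899. Acta2, smooth muscle actin, was at 56.2, 14.4, 22.2 and 18.6 CPM in tumour 325 and 20.9, 14.8, 16.2, 101.3 and 39.2 CPM in tumour 899, with region 1 and region 5 the high ones. Myh11, the smooth muscle myosin, was at 15.7, 5.63, 3.18 and 4.87 CPM in tumour 325 and 5.97, 3.13, 2.68, 24.5 and 15.8 CPM in tumour 899, in the same order at the top. Of 10 endothelial genes 2 spanned 4-fold, Plvap and Vwf, and without the 2 libraries that stand apart Vwf alone of 9 did. Over all genes these shares were 5.46% and 3.28%.

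Of 4 tested fat-associated genes 2, Cfd and Car3, spanned 4-fold, with and without the 2 libraries that stand apart, beside 5.46% and 3.28% of all genes. Both did so in tumours 325 and 899, and Cfd also in tumours 202 (2.21 log2 units) and 881 (2.18, and under 2 without the library that stands apart). Cfd, the secreted adipsin of fat cells, was at 0.261, 27.8, 20.1 and 12.4 CPM in tumour 325 and 18.1, 18.8, 2.27, 0.129 and 11.5 CPM in tumour 899. Car3, a carbonic anhydrase of fat and muscle, was at 0.782, 27.9, 16.2 and 14.4 CPM in tumour 325 and 11.7, 29.1, 4.71, 0.194 and 10.02 CPM in tumour 899: region 1 of tumour 325 and region 5 of tumour 899 were nearly without both. Adipoq, the defining adipocyte hormone, stayed under 5 CPM on average, with 0.347, 4.66, 6.45 and 5.404 CPM in tumour 325, and Fabp4 and Lpl, which other cells also express, did not span 4-fold in any tumour. Hp, an acute-phase protein, was lowest in the same region of tumour 325, at 1.998, 39.9, 49.1 and 45.3 CPM.

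Immunoglobulin genes also differed between regions of the 3 T-lineage tumours. Igkc, the kappa constant chain, was at 65.2, 3.12, 3.77, 11.4 and 222 CPM in tumour 899, and at 85.5, 269, 58.4 and 56.2 CPM in tumour 325. Jchain, which joins secreted IgA and IgM, was at 7.52, 0.897, 0.721, 1.94 and 16.3 CPM in tumour 899 and 13.6, 33.6, 7.91 and 5.29 CPM in tumour 325. Regions 1 and 7 of tumour 899, and region 3 of tumour 325, were the high ones, and the Ighv counts of those regions were spread over many segments: the leading one took 15.7%, 10.7% and 7.56%. Of these, region 7 of tumour 899 also had the highest epithelial mean of its tumour (4.74), and region 3 of tumour 325 the highest fibroblast mean (6.83). Region 7 of tumour 899 stands apart, and without it Igkc still ranged from 3.12 to 65.2 CPM. Ighm in tumour 325 went another way, at 330.3, 573, 583 and 1033 CPM, highest in region 7 where Igkc was lowest. Of granulocyte genes only Lcn2 passed 5 CPM on average, at 87.7, 2.35, 30.4 and 28.1 CPM in tumour 881. S100a8 and S100a9, calcium-binding proteins of neutrophils, were highest in region 3 of tumour 202, at 21.8 and 25.7 CPM against at most 10.2 CPM in any other region. Of 4 tested haemoglobin genes 3 spanned 4-fold, beside 5.46% of all genes, all in tumour 202, with Hbb-bs at 134, 48.6, 27.9 and 58.1 CPM.

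Some genes of thymocyte stage and Notch signalling also differed in level between regions. Notch receptors drive early T-cell steps and, when active in lymphoma, raise targets such as Dtx1, Hes1 and Ptcra. Of 11 measured Notch pathway genes 2 spanned 4-fold (5.46% of all genes did), Dtx1 and Jag2, both in tumour 881, and without the 2 libraries that stand apart 3 of 12 did (3.28% of all genes), Hey1 in tumour 325 and Heyl and Jag2 in tumour 881. Of 19 thymocyte stage genes 3 did, with and without those libraries: Il2ra in tumours 202 and 881, Cd24a in tumour 202 and Ptcra in tumour 325. Dtx1 was at 72.4, 51.95, 200.3 and 76.1 CPM in tumour 325. Hes1 was at 13.98, 8.92, 27.5 and 7.88 CPM there and Ptcra, the pre-T-cell receptor alpha chain, at 3.74, 4.21, 21.7 and 10.9 CPM. Il2ra, the interleukin-2 receptor chain CD25, was at 16.9, 16.5, 65.1 and 31.6 CPM. Region 5 was thus the highest of the 4 for each of these 4 genes. Both lists moved with the epithelial list, with a correlation over 17 regions of 0.65 for thymocyte stage and 0.60 for Notch pathway genes (0.58 and 0.61 over 15). In tumour 881 Il2ra, at 3.07, 0.9904, 9.43 and 28.7 CPM, had the region order of Krt5, whereas in tumour 325 Krt5 was highest in region 1. The part of the epithelium in these values was not tested. Notch1, at 168, 271, 285 and 177 CPM, was about as high in region 3 as in region 5, and Trbv13-3 was the leading segment there as elsewhere. Region 5 also had the lowest mitochondrial share of the 17, 0.773%, and the highest mean of the ribosomal protein list, 9.90 against 9.10 to 9.70 in the other 16; their part in these values was not tested.

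The other tumours gave a different picture for these genes. In tumour 899 Dtx1 was at 1671, 1463, 1423, 1266 and 1397 CPM, Ptcra at 128 to 155 CPM and Notch1 at 1178, 1109, 1301, 1313 and 1726 CPM, the last highest in the library that stands apart. Il2ra was at 267, 229, 215, 133 and 89.4 CPM, lowest in regions 5 and 7. In tumour 881 Dtx1 was at 30.98, 55.2, 15.1 and 8.55 CPM and Il2ra at 3.07, 0.9904, 9.43 and 28.7 CPM, in opposite order. In tumour 202 Dtx1 was at 1.33, 1.29, 0.875 and 2.04 CPM. Cd24a, a surface glycoprotein of immature lymphocytes and epithelium, was at 27.9, 42.7, 31.2 and 3.15 CPM in tumour 202, lowest in region 7, the region nearly without Krt5. The hypoxia gene Egln3, an oxygen-sensing hydroxylase, was the only 1 of 15 hypoxia and glycolysis genes past 4-fold, a share near the 5.46% of all genes, at 2.49, 0.417, 10.3 and 7.03 CPM in tumour 881. Without the library that stands apart it no longer passed, and P4ha1, a collagen prolyl hydroxylase, at 9.97, 17.1, 41.3 and 40.6 CPM in that tumour, did.

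Genes of the mitochondrial genome were highest in the 2 libraries that stand apart. Of 13 such genes 10 spanned 4-fold with them and 3 without, beside 5.46% and 3.28% of all genes. Their median SD was 0.694 with and 0.404 without these libraries, against 0.204 and 0.176 for all genes. The list's mean log2(CPM + 1) was 10.4 in region 3 of tumour 881 and 10.3 in region 7 of tumour 899, against 7.58 to 9.28 in the other 15 regions. mt-Nd3, a subunit of complex I, spanned 4-fold in 3 tumours with values from 0 to 31.1 CPM in tumour 202.

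The tumours differed in which region carried their spread. The median SD of a gene between regions was 0.118 in tumour 202, 0.184 in tumour 325, 0.259 in tumour 881 and 0.151 in tumour 899, and without the 2 libraries that stand apart it was 0.212 in tumour 881 and 0.109 in tumour 899. Tumour 202 had 172 genes past 4-fold, of which region 7 was the lowest for 129, and leaving out region 7 left 37. Tumour 325 had 163, of which region 1 was the highest for 88, and leaving out region 1 left 56. Tumour 881 had 469, or 148 without its library that stands apart, of which region 7 was then the highest for 108 and region 1 the lowest for 107. Tumour 899 had 207, or 92 without its library that stands apart, of which region 5 was then the highest for 66 and region 2 the lowest for 49. The most frequent extreme was thus the region with the lowest (tumour 202) or highest epithelial mean of its tumour among those counted, with region 1 of tumour 881 nearly as frequent.

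Median expression by chromosome was next compared, since the series is about aneuploidy and a gained or lost chromosome shifts the expression of many of its genes. For 14683 autosomal genes the log2 ratio to normal thymus was centred per library and summarised as the median of each of 19 autosomes. It is a measure of expression, not of DNA copy number, and 7 of the 8 normal thymuses are among the libraries with 0 CPM of Rpl10-ps1. Some shifts were common to the 4 tumours, which were all set against the same normal thymuses. In tumours 202, 325, 881 and 899 chromosome 6 stood at a mean of -0.10, -0.29, -0.35 and -0.19. Chromosome 7 stood at -0.20, -0.24, -0.19 and -0.24, and chromosomes 5 and 15 were above 0 in each tumour. Other shifts differed between tumours in size or direction. Chromosome 5 stood at a mean of 0.72 in tumour 899, 0.52 in tumour 881, 0.29 in tumour 325 and 0.25 in tumour 202. Chromosome 9 stood at 0.47 and chromosome 8 at -0.51 in tumour 202, chromosome 14 at 0.59 in tumour 325 and chromosome 12 at 0.44 in tumour 899.

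Regions of a tumour shared these patterns. The mean SD of an autosome between regions was 0.0412, 0.0293, 0.0434 and 0.0238 in tumours 202, 325, 881 and 899, against an SD of 0.206 to 0.270 between the chromosomes of a tumour. Without the 2 libraries that stand apart it was 0.0390 in tumour 881 and 0.0198 in tumour 899. The wider differences were these. Chromosome 15 of tumour 325, which carries Myc, was at 0.37 in regions 1 and 3 and at 0.55 and 0.53 in regions 5 and 7. Between the 2 pairs the median difference was 0.127, 0.184, 0.149 and 0.0924 in 4 successive parts of its genes in order of position. The 25th percentile was below 0 in each part (-0.194, -0.106, -0.0907 and -0.105). The pairs were set by this chromosome's own median, so positive medians in its parts largely restate that choice. Chromosome 17 of tumour 881 was at -0.18 in region 1, -0.14 in region 3, 0.01 in region 5 and 0.12 in region 7. Between regions 7 and 1, picked likewise as its highest and lowest, the median difference was 0.219 to 0.363 per such part. Chromosome 5 of tumour 881 ranged over 0.210, but over 0.0694 without the library that stands apart. In tumour 202 chromosomes 14, 12, 19 and 17 ranged over 0.173, 0.161, 0.155 and 0.155, with region 7 the highest in each. The widest of tumour 899 was chromosome 8, at 0.114. Chromosome 17 carries the MHC genes, and region 7 of tumour 881 also had the highest epithelial and interferon means, whose part in the chromosome value was not tested.

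**Figure D4:**
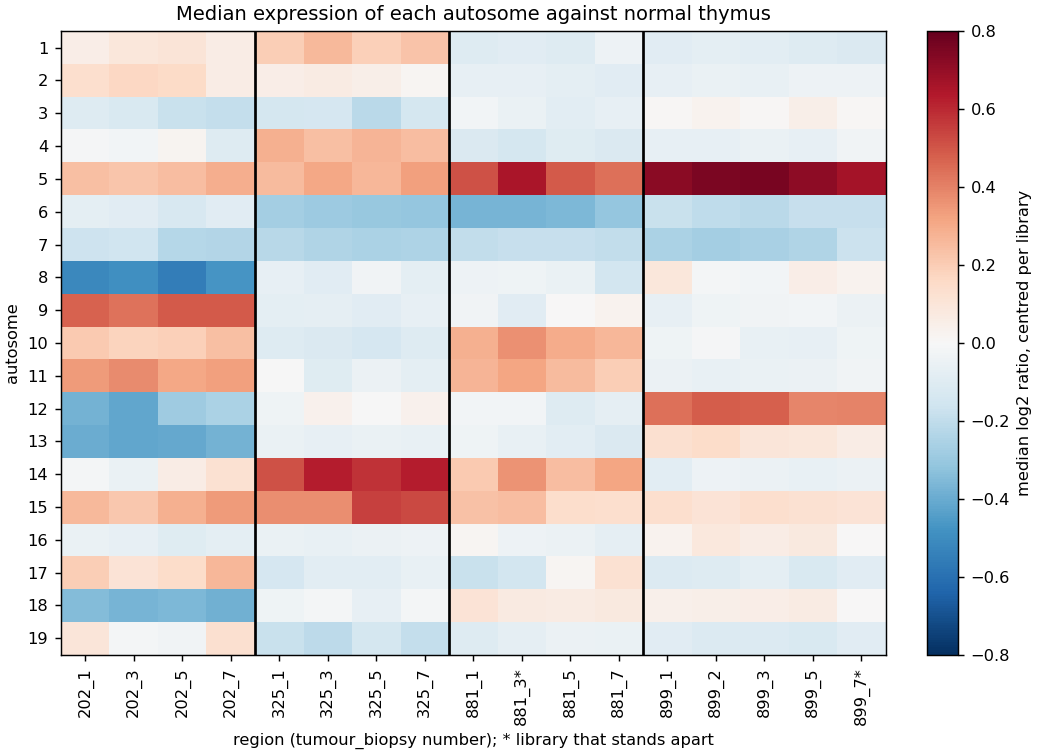
Median log2 ratio to normal thymus of each of 19 autosomes (rows), by colour from blue (lower) to red (higher), in the 17 regions (columns, grouped by tumour; asterisks mark the 2 libraries that stand apart). Columns of one tumour look alike, with chromosome 5 red in tumour 899 (mean 0.72) and chromosome 8 blue in tumour 202 (mean -0.51), and chromosome 15 of tumour 325 is redder in regions 5 and 7 (0.55 and 0.53) than in regions 1 and 3 (0.37).

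Genes were also tested for a difference by biopsy number across tumours. With the number added to the tumour term, edgeR called 0 of 11510 genes (0%) at an adjusted p under 0.05 and 108 at an unadjusted p under 0.05, and DESeq2 called 0 and 218.

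To ask whether regional spread in untreated p53-/- tumours differed from that after transient doxycycline, 1 value per tumour was compared by a two-sided exact permutation test over tumours, adjusted over 4 comparisons. The median SD of a gene between regions was 0.178 ± 0.0588 (SD, n = 4) in untreated and 0.274 ± 0.0283 (n = 3) in treated p53-/- tumours (exact p = 0.0857, adjusted 0.171). The untreated tumours ran from 0.117 to 0.256 and the treated ones from 0.243 to 0.298, so they overlapped. Without the libraries that stand apart the ranges were 0.114 to 0.228 and 0.242 to 0.298, which did not overlap (exact p = 0.0571, adjusted 0.114). In treated p53+/- tumours it was 0.213 ± 0.0639 (n = 6; exact p = 0.410). There the untreated minus treated difference was -0.0350, or -0.0177 without the libraries that stand apart. Without them the treated p53+/- tumours ran from 0.104 to 0.245 and overlapped with the untreated ones. For chromosomes the mean SD between regions was 0.0344 ± 0.00941 (n = 4) in untreated and 0.0664 ± 0.00127 (n = 3) in treated p53-/- tumours. The groups did not overlap (0.0238 to 0.0434 against 0.0650 to 0.0673), the exact p of 0.0286 is the smallest that 4 against 3 allows, and the adjusted p was 0.114. Against treated p53+/- tumours, at 0.0510 ± 0.0194 (n = 6), the exact p was 0.167 and the adjusted p 0.222. No comparison of spread passed an adjusted p of 0.05. The shallowest libraries held 1.03 and 8.85 M counts in 2 treated p53-/- tumours and 3.81 M in the treated p53+/- tumour with the largest spread (0.290), against at least 10.01 M in the untreated ones. Without the libraries that stand apart that p53+/- tumour had a gene spread of 0.173, and the largest of its group was 0.245. Its chromosome spread was then 0.0336 in place of 0.0649. Without libraries under 5 M counts the untreated minus treated p53-/- difference in gene spread was -0.0935 (exact p = 0.133), against -0.0967 with them. The untreated mice were male, while 2 of the 3 treated p53-/- mice and 5 of the 6 treated p53+/- mice were female, and the part of sex was not tested.

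**Figure D5:**
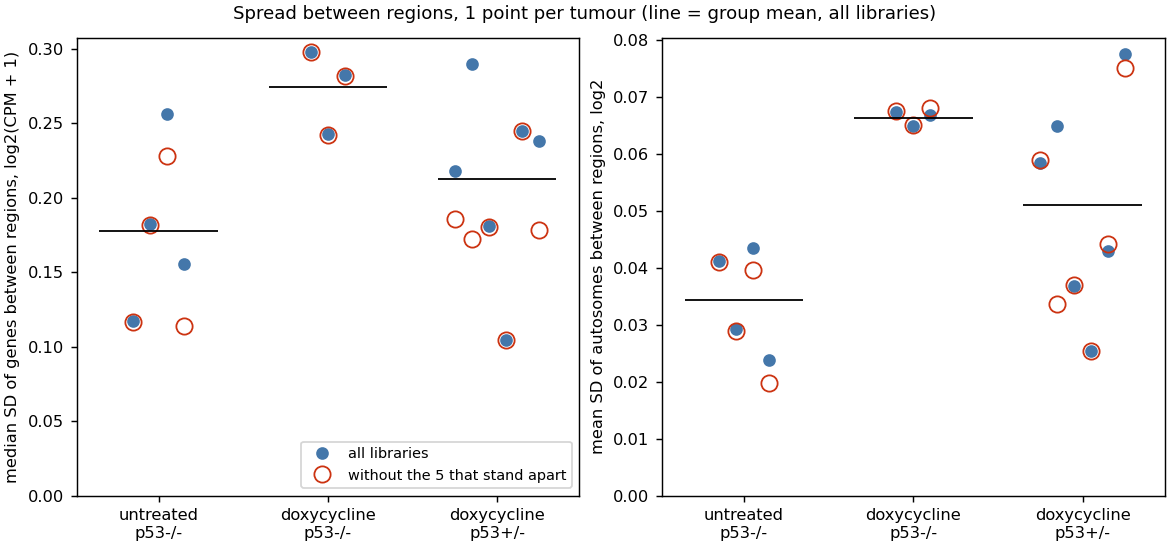
Spread between regions, 1 point per tumour, for the median SD of genes (left, log2(CPM + 1)) and the mean SD of autosomes (right, log2), in 4 untreated p53-/-, 3 doxycycline-treated p53-/- and 6 doxycycline-treated p53+/- tumours; filled points use all libraries, open circles leave out the 5 that stand apart and lines are group means. On the right the untreated tumours lie at 0.0238 to 0.0434 and the treated p53-/- tumours at 0.0650 to 0.0673.

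Many of the genes that varied most between regions of the untreated tumours also varied most in the 9 treated ones. Of the 538 genes in the top 5% by SD between regions, 311 (57.8%) were in the top 5% of the treated tumours, or 285 of 537 (53.1%) without the libraries that stand apart. Against the 3 treated p53-/- tumours alone it was 220 of 528 (41.7%), or 243 of 529 (45.9%) without those libraries, and against the 6 treated p53+/- tumours 312 of 539 (57.9%). Of the 20 genes with the largest SD, 5 (Alox12e, Bpifa1, S100a14, Pkp1 and Aire) did not reach 5 CPM on average in the treated tumours and have no value there. Krt5 had an SD of 1.98 between regions of treated tumours against 2.29 here, and Fcgbp 2.16 against 2.19.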

How the data were processed

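The authors deposited a table of RSEM expected counts per gene for 81 libraries, of which 14.3% of values were not whole. They were rounded here for the edgeR and DESeq2 tests, while CPM and the variance split used the unrounded values. Per the submitters' processing notes the tools were CASAVA 1.8, fastp, STAR 2.7.2b and RSEM 1.1.17 with build mm10. Strandedness is not given in the sources used here, so antisense and overlapping genes cannot be told apart. Gene symbols came from the deposited table and gene types and positions from GENCODE M21 (51633 IDs, 99.6%), and 0 columns were left unused.

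Libraries were scaled by TMM (edgeR 4.0.16, R 4.3.3) to CPM, genes with a mean of at least 5 CPM were kept, and log2(CPM + 1) was split into variance within and between tumours. Depth was 10.01 to 24.4 M (mega) counts per library. Differences between tumours and between biopsy numbers were tested with edgeR's quasi-likelihood test and Benjamini-Hochberg adjustment, with DESeq2 1.42.0 as an alternative. Regions of a tumour are separate biopsies of 1 mouse, so these tests take the spread between biopsies as their error and speak of these tumours only. Spread was compared over tumours by an exact permutation test. The scripts were tested on simulated data.

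Genes named are the 20 with the largest SD between regions, the 3 with the widest span in each tumour, the 10 with the largest variance between tumours and under 5% of it within (receptor segments, pseudogenes and Gm or Rik models left out), the 3 most variable members of each list, members of the T-lineage, Notch and driver lists, and leading receptor segments. Other genes, such as S100a8, Adipoq, Epcam, Hp, Isg15 and Plk4, were chosen after their values were seen. Some genes that meet the rule are not reported here. Members and lists were chosen with earlier results of these data known. Alternatives varied the pseudocount, the filter, the scaling, the tool and the libraries.

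Same-numbered biopsies of different tumours did not deviate together: the correlation was -0.46 to 0.47 with a median of -0.07 over 24 pairs.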

Additional observations from a re-analysis of the deposited data

Results flagged for a closer look

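Within each tumour, list means, depth and the mitochondrial share were checked for a single region far from the others. Gene spread and chromosome spread were checked likewise for a single tumour among the untreated p53-/- and among the treated p53+/- tumours. Dixon's criterion was used, which chance meets in about 1 in 20 groups, and 11 of 132 groups met it. In tumour 202 the thymic epithelium mean of region 7 was 1.96, against 5.29 to 5.59 in its other regions. In tumour 325 region 5 stood apart in 3 measures: thymocyte stage genes at 6.02 against 5.75 to 5.76, mitochondrial genome genes at 7.72 against 8.28 to 8.36, and a mitochondrial share of 0.773% against 1.38% to 1.502%. Region 1 of that tumour had a smooth muscle and pericyte mean of 4.86 against 3.98 to 4.07.

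In tumour 881 the library that stands apart, region 3, had a lymphoma driver mean of 6.44 against 6.22 to 6.24 and a mitochondrial genome mean of 10.4 against 8.43 to 8.65. Region 5 of tumour 881 had a ribosomal protein mean of 9.70 against 9.15 to 9.22. In tumour 899 the library that stands apart, region 7, had a mitochondrial genome mean of 10.3 against 8.93 to 9.28 and a mitochondrial share of 4.07% against 1.71% to 2.23%. Region 3 of tumour 899 had a macrophage mean of 6.21 against 6.53 to 6.64.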

How the results depend on the processing

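The number of genes past 4-fold between regions depended on the low-value filter and on a few libraries. In place of 629 genes it was 275 with a pseudocount of 5, 1160 at a mean of at least 1 CPM, 104 at a mean of at least 50 CPM and 378 without the 2 libraries that stand apart, an alternative chosen after seeing the data. Leaving out 1 region or 1 tumour gave 337 to 657, with 337 without all of tumour 881. Genes with most of their variance within tumours numbered 3393 at a mean of at least 1 CPM and 838 at 50 CPM, and 1775 to 3190 over the left-out regions and tumours. The median within-tumour share was 15.7% to 25.1% over those, highest without tumour 202. The cause of these shifts was not tested, apart from the number of genes that each filter lets in.

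Genes that differed between tumours numbered 16109 with no filter beyond a total count of 10, and 8645 to 10427 over the left-out regions and tumours. With biopsy number as a replicate block the count was 9864, and the numbers do not pair the samples. No gene passed for biopsy number in any alternative (79 to 299 at an unadjusted p under 0.05). The 4 comparisons of spread with treated tumours kept their direction in all 17 to 19 alternatives, with no adjusted p under 0.05 by the exact permutation test (lowest 0.0952). One library per region limits every statement on single genes.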
